A study of Mus musculus with 9 samples.

Results

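Tnni3 encodes cardiac troponin I, and the gene was read at 14 CpG sites, 7 in each of 2 amplified regions named Tnni3_1 and Tnni3_2. These were chosen as all CpG sites listed under those names with at least 30 reads in all 9 libraries, and they are 14 of the 310 CpG sites of 15 genes that met this minimum. All 14 listed Tnni3 CpG sites met it, the thinnest with 106 reads in one library. The cells were ventricular cardiomyocytes from CD-1 mouse embryos at embryonic day 13.5, kept in culture for 48 h before 0.012 pmol of siRNA was added, and collected 72 h after that by magnetic sorting on the surface protein VCAM1. The 3 groups received negative control siRNA, DNMT3a siRNA or DNMT3b siRNA, with 3 libraries each, and all 3 groups shared culture, transfection reagent and sort. Each DNMT reagent was a mix of 4 siRNAs, and the ventricles of a litter were pooled before culture. The labels do not say whether the 3 libraries of a group came from separate litters or cultures, so p-values measure only the spread between these samples, which may be technical. Neither DNMT3a nor DNMT3b RNA or protein is part of these data, so the depletion of the enzymes, the identity of the sorted cells and the output of Tnni3 itself were not measured here.

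Troponin I is the inhibitory subunit of the troponin complex on the thin filament: it holds the actin and myosin interaction off until calcium binds to troponin C. The embryonic heart relies largely on the slow skeletal isoform from Tnni1 and shifts to the cardiac isoform from Tnni3 around birth. DNMT3A and DNMT3B are the de novo DNA methyltransferases, which add a methyl group to cytosines, mainly in CpG dinucleotides, and methylation of a promoter often accompanies low transcription. Bisulfite turns unmethylated cytosines into uracil, read as T, while methylated cytosines stay C, so the share of C among the reads at a CpG is its methylation level. Bisulfite reads do not separate 5-methylcytosine from 5-hydroxymethylcytosine.

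Sites are numbered by their offset in bases from the start of the listed region, and the spacing of the listed cytosines was matched to the RefSeq promoter sequence of Tnni3 (GRCm38.p6) to place them, with an overlap of at least 40 bases. Tnni3_1 had 1 match among the 650 placements tried on the gene's strand and 0 of 650 on the other, and the match covered 221 bases with 46 cytosines, 4 of them in CpGs. It set the region on the minus strand of chromosome 7, with the matched part at chr7:4522479-4522699 across the annotated start of Tnni3 at base 4522528. The CpGs at offsets 66, 103 and 171 then lie 106, 69 and 1 bases before the start (bases 4522634, 4522597 and 4522529), and the CpG at offset 194 lies 23 bases into the transcript, counting the start base as 1 (base 4522506). Those at offsets 244, 355 and 409 lie farther into the gene, beyond the reference window, and whether they are exonic or intronic was not determined. RefSeq gives the gene as chr7:4518305-4522718, which ends 190 bases upstream of this start, so every Tnni3_1 CpG lies within the annotated gene. Its neighbours are Dnaaf3 at chr7:4522933-4532488 and Tnnt1, the slow skeletal troponin T gene, at chr7:4504569-4515975. Tnni3_2 matched none of 656 placements on either strand of the window, and its coordinates were not determined.

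The 250 bases before the start are shown because the upstream CpGs of Tnni3_1 lie in them, and the 2 short windows because the steepest step in methylation found in Tnni3_1 lies between their CpGs. In the first line and the first window, capitals mark CpGs, the run of 250 bases ending at the C of the CpG 1 base before the start. In the last line, capitals mark the letters TTATC, which read GATAA on the other strand.
Tnni3, chr7:4522529-4522778, minus strand: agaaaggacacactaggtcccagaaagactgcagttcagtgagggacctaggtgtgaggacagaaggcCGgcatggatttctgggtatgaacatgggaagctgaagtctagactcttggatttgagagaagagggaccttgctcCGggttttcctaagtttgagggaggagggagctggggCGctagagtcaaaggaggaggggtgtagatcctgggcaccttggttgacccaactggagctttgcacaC
Offset 171, chr7:4522518-4522539, minus strand: gctttgcacaCGgctcccctca
Offset 194, chr7:4522492-4522520, minus strand: tcacaccctgTTATCgcTTATCctgggca

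The reference window (250 bases before the start and 50 from it) holds 5 CpGs, against a median of 7 over 32851 mouse promoters of the same length, of which 38.0% hold fewer, and GC makes up 53.6% of the 250 upstream bases. The CpG 182 bases before the start lies outside the amplified region. Searched on both strands, GATAA, the core bound by GATA factors such as the cardiac regulator GATA4, matched 2 times, at 19 and 26 bases into the transcript, and 25.4% of all promoters hold it. The first match ends on the C of the CpG at offset 194. CANNTG, the E-box bound by basic helix-loop-helix factors, matched 1 time, 19 bases before the start (72.3% of promoters hold it). The TATA box letters TATAA had 0 matches (24.9% of promoters hold them). The M-CAT letters CATTCC, bound by TEAD factors, had 0 matches (14.7%). The GC box letters GGGCGG, bound by SP1, had 0 matches (35.7%). None of the matches overlaps another, and a match of letters is no evidence of binding.

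Both Tnni3 regions were partly methylated in all libraries. Tnni3_1 read 51.7%, 55.8% and 56.9% in the 3 negative siRNA libraries, 46.5%, 58.7% and 49.5% with DNMT3a siRNA and 49.5%, 51.9% and 50.4% with DNMT3b siRNA, as means over its 7 CpGs. Tnni3_2 read 61.9%, 63.4% and 64.6% with negative siRNA, 56.8%, 67.7% and 62.0% with DNMT3a siRNA and 58.1%, 62.8% and 63.7% with DNMT3b siRNA. In both regions DNMT3a siRNA replicate 1 was the lowest and DNMT3a siRNA replicate 2 the highest of the 9 libraries, and the 3 groups overlapped. Most of the 26 regions tested overlapped too. Groups did not overlap in 23.1% of them for DNMT3a siRNA and 19.2% for DNMT3b siRNA, each against negative siRNA, and in 15.4% between the DNMT siRNAs. Over all 9 libraries the levels were 52.3% ± 4.00 (SD, n = 9) in Tnni3_1 and 62.3% ± 3.30 in Tnni3_2, which put them at ranks 10 and 5 from the top among the 26 regions tested.

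**Figure D1:**
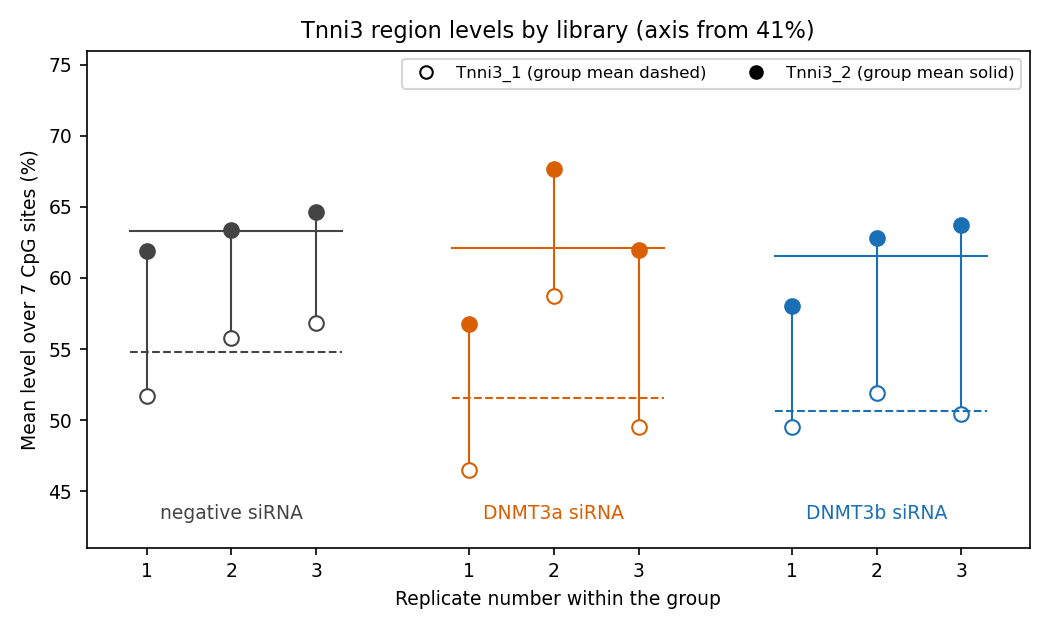
Mean CpG methylation level in percent (vertical axis) of Tnni3_1 and Tnni3_2 in each library, with 1 point per library (open for Tnni3_1, filled for Tnni3_2), a vertical line joining the 2 regions of a library, and a horizontal line at the mean of each group of 3. The 3 groups overlap in both regions, and DNMT3a siRNA holds both the lowest and the highest library.

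Each library held between 27193672 and 32543683 cytosine calls in total, of which 77506 to 100443 fell on the Tnni3 CpGs. At cytosines outside CpGs, where a C mostly marks failed conversion, the share of C was 0.149% to 0.192% in Tnni3_1 and 0.220% to 0.381% in Tnni3_2, with DNMT3a siRNA replicate 2 at 0.381%. The labels give no sequencing batch.

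Within Tnni3_1 the level changed sharply over short distances around the gene start. The CpG 1 base before the start (offset 171) was the lowest of the region, with 27.7%, 33.0% and 37.5% in the negative siRNA libraries, 24.1%, 42.0% and 27.0% with DNMT3a siRNA and 26.3%, 32.9% and 28.0% with DNMT3b siRNA. The CpG at offset 194, 23 bases farther on, read 60.3%, 64.6% and 66.1%, then 56.0%, 68.3% and 56.0%, then 57.0%, 62.0% and 57.1% in the same order. The second was higher than the first in 9 of 9 libraries, and the lowest level at offset 194 lay above the highest at offset 171. Within a library the step was 29.9 ± 2.00 percentage points (SD, n = 9, range 26.3 to 32.6). The next CpG, at offset 244, fell by 26.4 ± 2.71 points, and offset 355 rose again by 29.0 ± 2.61 points. Upstream, the level went down toward the start, from 58.7% ± 3.30 at offset 66 through 46.9% ± 3.91 at offset 103 to 30.9% ± 5.87 at offset 171 (SD over 9 libraries). The farthest CpG, at offset 409, had the highest mean level, 71.0% ± 5.02, from only 175 to 225 reads per library.

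Tnni3_2 also alternated between high and low CpGs. Offset 321 had the highest mean level of the region (82.7% ± 1.28) and offset 120 the lowest (30.8% ± 2.39), with 26.97% as its lowest and 34.1% as its highest library. Offset 120 was not separated from offset 171 of Tnni3_1, which it exceeded in 5 of 9 libraries. Offsets 49 and 62 averaged 75.9% ± 11.2 and 81.6% ± 4.72, offsets 200 and 354 62.3% ± 2.81 and 60.5% ± 2.85, and offset 398 42.5% ± 6.55. From offset 62 to offset 120, 58 bases on, the level fell by 50.9 ± 5.72 points, the largest step between neighbouring Tnni3 CpGs. Both sites were thinly covered, with 123 to 190 reads per library at offset 62 and 133 to 196 at offset 120. From offset 120 the level rose by 31.5 ± 3.56 points to offset 200. Of the 12 pairs of neighbouring CpGs, 13 to 121 bases apart, 11 differed in the same direction in 9 of 9 libraries, each with an exact two-sided sign-flip p = 0.0039, the smallest that 9 libraries allow, and a Benjamini-Hochberg adjusted p of 0.0043 over the 12 pairs. The exception was offsets 49 and 62, which differed by 5.79 ± 9.73 points, 62 being higher in 5 of 9 libraries (exact p = 0.125).

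**Figure D2:**
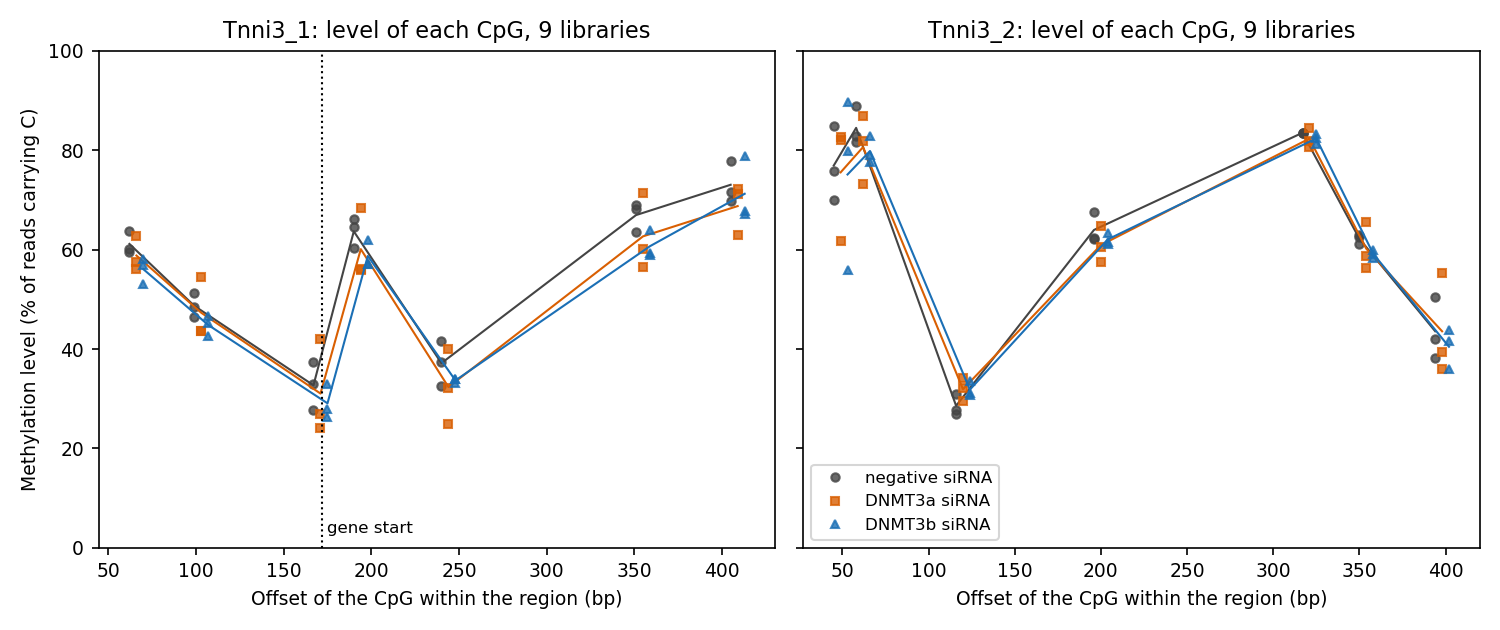
Methylation level in percent (vertical axis) at each Tnni3 CpG against its offset in bases from the start of the listed region (horizontal axis), with 1 point per library shifted sideways by group for legibility, and a line through the mean of each siRNA group. The dotted line marks the annotated start. Each of the 12 steps between neighbouring CpGs goes in the same direction in the means of all 3 groups, with the step of 29.9 points between offsets 171 and 194 at the start.

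Ranked by level, some neighbours in the order could not be separated. In Tnni3_1 offset 194 exceeded offset 66 in 6 of 9 libraries and offset 244 exceeded offset 171 in 8 of 9, while the other 4 steps of the order held in 9 of 9. In Tnni3_2 offset 321 exceeded 62 in 6 of 9, 62 exceeded 49 in 5, 49 exceeded 200 in 8 and 200 exceeded 354 in 7, and the last 2 steps, down to 398 and then 120, held in 9 of 9.

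Tnni3_2 had a higher measured level than Tnni3_1 in 9 of 9 libraries. The 2 are separate amplified regions, and a test over libraries measures only how repeatable their gap is. Whether amplification favoured methylated or unmethylated copies of either region was not tested. The difference within a library was 10.0 ± 2.00 points (SD, n = 9, range 7.63 to 13.4), with an exact two-sided sign-flip p = 0.0039. It was 8.55 ± 1.47 points with negative siRNA, 10.6 ± 1.79 with DNMT3a siRNA and 10.9 ± 2.39 with DNMT3b siRNA (n = 3 each). The size depended on how thin sites were weighted: it was 22.8 points when reads were pooled over a region's sites and 19.3 points with only the CpGs that had 1000 reads in all libraries, which leaves out offset 409 of Tnni3_1 and offsets 49, 62, 120 and 398 of Tnni3_2. The gap between the regions did not differ detectably between groups: it was 2.03 points larger with DNMT3a siRNA than with negative siRNA (exact permutation p = 0.20), 2.39 points larger with DNMT3b siRNA (exact permutation p = 0.20) and 0.36 points apart between the DNMT siRNAs (exact permutation p = 0.80), where 3 against 3 libraries cannot give a p below 0.10. Leaving out 1 library moved the first from 1.07 (without DNMT3a siRNA replicate 3) to 2.88 points and the second from 1.18 (without DNMT3b siRNA replicate 3) to 3.57 points.

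Whether depletion of DNMT3a lowers methylation at Tnni3 was asked by comparing DNMT3a siRNA with negative siRNA. Both regions were lower in mean, as were 65.4% of all 26 regions, and neither difference passed the test. Tnni3_1 averaged 51.6% ± 6.39 with DNMT3a siRNA and 54.8% ± 2.74 with negative siRNA (SD, n = 3), a log2 odds ratio of methylated over unmethylated reads of -0.19 ± 0.21 (SE). Tnni3_2 averaged 62.1% ± 5.46 and 63.3% ± 1.37, with a log2 odds ratio of -0.12 ± 0.13. Here and below, region odds ratios and their tests use reads summed over a region's CpGs, so deeply covered sites weigh most. The averages weigh each CpG equally. With reads pooled in this way, Tnni3_2 read 70.4% ± 3.56 with DNMT3a siRNA and 72.2% ± 0.69 with negative siRNA. The adjusted p from edgeR's quasi-likelihood test over the 26 regions was 0.651 for both Tnni3 regions. The test called 0.0% of the 26 regions at an adjusted p under 0.05. The spread within the DNMT3a siRNA group was larger than the difference from negative siRNA, and replicate 2 lay above all negative siRNA libraries while replicate 1 lay below them. Without DNMT3a siRNA replicate 2 the log2 odds ratios were -0.42 and -0.26, with an adjusted p of 0.060 for both by the same test, the lowest of any alternative tried on a Tnni3 region. Without DNMT3a siRNA replicate 1 they were -0.028 and -0.020, with an adjusted p of 0.977 for both by the same edgeR test.

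Of the 14 single CpGs, 13 had a lower mean under DNMT3a siRNA and 1, offset 120 of Tnni3_2, a higher one, while 60.6% of all 310 sites were lower. The edgeR test called 0 of the 14 at an adjusted p under 0.05 (0.0% of all sites) and 0 at an unadjusted p under 0.05 (12.6% of all sites), and at 0 of the 14 did the groups not overlap (15.2% of all sites). The median log2 odds ratio was -0.14 over the 14 sites and -0.11 over all sites. The Tnni3 values ranged from -0.35 at offset 62 of Tnni3_2 (80.6% ± 6.89 against 84.5% ± 3.87) to 0.23 at offset 120 (31.9% ± 2.30 against 28.6% ± 2.10). The value at offset 62 moved to -0.0012 when replicate 1 of DNMT3a siRNA was left out, to -0.64 when its replicate 2 was, and to -0.13 when replicate 1 of negative siRNA was. In points, the largest drop in mean was at offset 244 of Tnni3_1, with 32.4% ± 7.59 against 37.2% ± 4.51 for negative siRNA (SD, n = 3), a log2 odds ratio of -0.32 ± 0.27. It moved to -0.066 when replicate 1 of DNMT3a siRNA was left out, to -0.57 when its replicate 2 was, and to -0.19 when replicate 3 of negative siRNA was. The adjusted p over the 14 sites lay between 0.695 and 0.994.

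DNMT3b siRNA against negative siRNA asks the same of DNMT3b. Both regions were again lower in mean, as were 80.8% of all 26 regions, and neither passed the test. Tnni3_1 averaged 50.6% ± 1.23 against 54.8% ± 2.74, a log2 odds ratio of -0.27 ± 0.20 (SE), and Tnni3_2 61.5% ± 3.05 against 63.3% ± 1.37, a log2 odds ratio of -0.16 ± 0.13. The edgeR adjusted p was 0.493 for both, and the test called 0.0% of the 26 regions. In Tnni3_1 the highest DNMT3b siRNA library (51.9%) lay just above the lowest negative siRNA library (51.7%). Without negative siRNA replicate 3 the log2 odds ratio of Tnni3_1 was -0.17 (edgeR adjusted p = 0.973). Taken within replicate numbers 1, 2 and 3, DNMT3b siRNA was lower than negative siRNA in 3 of 3 pairs in both Tnni3 regions. How many of the 26 regions did the same was not counted, so this is not shown to be particular to Tnni3. The differences were -2.17, -3.84 and -6.46 points in Tnni3_1 and -3.85, -0.59 and -0.89 points in Tnni3_2. For DNMT3a siRNA against negative siRNA they differed in sign: -5.19, 2.98 and -7.37 points in Tnni3_1 and -5.14, 4.29 and -2.66 points in Tnni3_2. An exact sign-flip test over 3 pairs cannot give a p below 0.25, and the labels do not say what a number shares.

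Among single CpGs, 13 of 14 were lower in mean with DNMT3b siRNA, as were 68.7% of all 310 sites, and offset 120 of Tnni3_2 was higher here too (31.8% ± 1.53). Because both comparisons use the same negative siRNA libraries, the shared direction is not independent. The edgeR test called 0 of 14 at an adjusted p under 0.05 (0.0% of all sites) and 0 at an unadjusted p under 0.05 (11.0% of all sites), with adjusted p between 0.533 and 0.980. The median log2 odds ratio was -0.20 over the 14 sites and -0.14 over all sites. At 3 of the 14 the groups did not overlap, a share close to that over all sites (64 of 310, 20.6%), so this does not set Tnni3 apart. At offset 66 of Tnni3_1, the CpG 106 bases before the start, the levels were 58.1%, 56.9% and 53.1% with DNMT3b siRNA and 59.6%, 60.1% and 63.8% with negative siRNA, a log2 odds ratio of -0.30 ± 0.17 (edgeR adjusted p = 0.533). At offset 354 of Tnni3_2 they were 58.4%, 59.2% and 60.0% against 62.9%, 61.2% and 62.5% (edgeR adjusted p = 0.808). At offset 321 of Tnni3_2 they were 81.2%, 83.3% and 82.5% against 83.5%, 83.5% and 83.5% (edgeR adjusted p = 0.845). The negative siRNA libraries differed there by less than 0.1 points. The highest DNMT3b siRNA library (83.31%) lay just below the lowest negative siRNA library (83.46%), where counting reads alone gives an SD of 0.331 points. The largest drop in mean was at offset 355 of Tnni3_1, from 66.9% ± 2.98 to 60.7% ± 2.80, a log2 odds ratio of -0.39 ± 0.26.

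**Figure D3:**
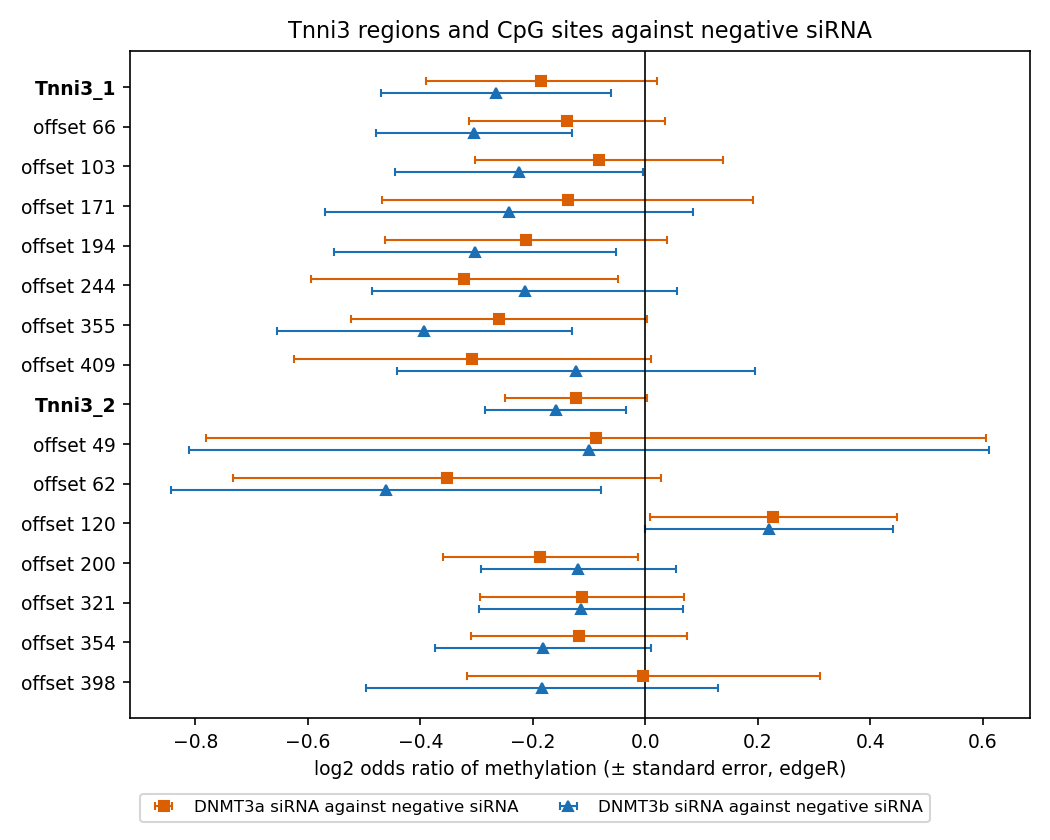
Log2 odds ratio of methylated over unmethylated reads with its standard error (axis without unit) for each of the 14 Tnni3 CpGs and both regions, for DNMT3a siRNA and DNMT3b siRNA against negative siRNA. Nearly all points lie below 0, offset 120 of Tnni3_2 lies above it in both comparisons, and 0 sites passed the test.

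The DNMT siRNAs were also compared with each other. Tnni3_1 was 0.96 points and Tnni3_2 0.61 points higher in mean with DNMT3a siRNA, with log2 odds ratios of 0.08 ± 0.20 and 0.04 ± 0.13 (SE; edgeR adjusted p = 0.818 for both; 0.0% of regions called). Of the 26 regions, 42.3% were lower in mean in that comparison. Of the 14 CpGs, 4 were lower and 10 higher with DNMT3a siRNA (41.6% of all sites were lower), the edgeR test called 0 at an adjusted p under 0.05 (0.0% of all sites) and 0 at an unadjusted p under 0.05 (7.42% of all sites), and at 0 did the groups not overlap (13.5% of all sites). The direction rested on single libraries: without DNMT3a siRNA replicate 2 the log2 odds ratios turned to -0.16 and -0.10, and without DNMT3b siRNA replicate 1 that of Tnni3_2 turned to -0.0080.

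The spread between libraries was set beside the counting SD, which treats reads as independent molecules. Reads here are PCR copies without molecular identifiers, so the counting SD, and the intervals below, cover counting error only and the ratio of a given spread to it grows with depth. The SD between libraries of a group was 15.8 times the counting SD at offset 171 of Tnni3_1 and 11.2 times at offset 194, where each library had at least 11222 and 11871 reads. At the thinly covered CpGs the ratio was lower, down to 0.555 at offset 120 of Tnni3_2 (133 to 196 reads), so the spread at that site is no larger than counting error. The widest range was at offset 49 of Tnni3_2: DNMT3b siRNA replicate 1 read 55.8% (95% Wilson interval 47.2% to 64.1%, 129 reads) and replicate 3 of the same group 89.6% (82.4% to 94.1%, 106 reads).

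**Figure D4:**
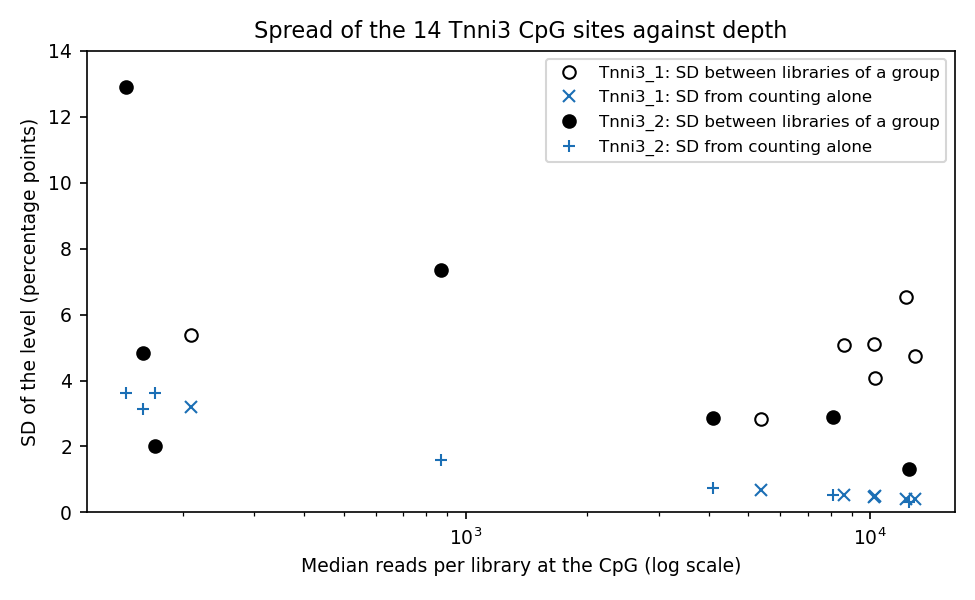
SD of the methylation level in percentage points (vertical axis) against median reads per library (horizontal axis, log scale) for each Tnni3 CpG, with circles for the SD between libraries of a group and crosses for the SD from counting alone. The ratio of circle to cross runs from 0.555 at offset 120 to 15.8 at offset 171 and is above 1 at 13 of the 14 sites.

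The spread was shared across Tnni3 but was not particular to it. Tnnt2_1 of the cardiac troponin T gene lay a mean of 1.42 points from Tnni3_1 over the 9 libraries. It read 52.4%, 58.1% and 59.2% with negative siRNA, 47.0%, 58.6% and 51.8% with DNMT3a siRNA and 48.8%, 53.9% and 52.05% with DNMT3b siRNA. The relations below use the mean of the other regions, and none was computed for Tnnt2_1 alone. DNMT3a siRNA replicate 2 held the highest of the 9 levels at 8 of the 14 CpGs, and DNMT3a siRNA replicate 1 the lowest at 9. Across the 9 libraries the levels of Tnni3_1 and Tnni3_2 were correlated, with Pearson r = 0.87 (exact permutation p = 0.0023, adjusted 0.0069) and Spearman rho = 0.87 (exact permutation p = 0.0045, adjusted 0.014), over a family of 3 relations chosen after the data were seen. The r was 0.74 without negative siRNA replicate 3 and DNMT3a siRNA replicate 2, the libraries farthest from the median of Tnni3_1, and 0.88 within groups. Tnni3_1 against the mean of the 24 other regions had r = 0.74 (exact permutation p = 0.021, adjusted 0.031) and rho = 0.80 (exact permutation p = 0.014, adjusted 0.021), but r fell to 0.36 without those same libraries and so rests on them; it was 0.66 within groups. Tnni3_2 against the other regions had r = 0.54 (exact permutation p = 0.14) and rho = 0.47 (exact permutation p = 0.21), with r = 0.27 without DNMT3a siRNA replicates 1 and 2 and 0.52 within groups. The regions of a library share one DNA sample, its conversion and its sequencing, and the part of these in the relation was not tested.

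The regions closest in level to Tnni3_1, by mean absolute difference over the 9 libraries, were Tnnt2_1 of the cardiac troponin T gene (1.42 points), Myh6_1 of alpha myosin heavy chain (5.03 points) and Myh7_1 of beta myosin heavy chain (5.25 points). Closest to Tnni3_2 were Cdkn1A_1 (4.28 points), of the cell cycle inhibitor p21, Myh7_1 (5.22 points) and NPPB_2 (6.25 points), of the natriuretic peptide B gene. Among the other troponin subunits, with negative siRNA, Tnnc1_1 and Tnnc1_2 of the calcium sensor troponin C read 90.5% ± 0.80 and 40.3% ± 0.27, and Tnnt2_1 and Tnnt2_2 of the tropomyosin-binding subunit 56.6% ± 3.65 and 83.9% ± 0.49 (SD, n = 3), so both Tnni3 regions lay between the extremes set by troponin C. In the 10 other regions of sarcomere genes (Myh6, Myh7, Myh7b, Tnnc1 and Tnnt2), 9 were lower in mean with DNMT3a siRNA than with negative siRNA (65.4% of all 26 regions) and 10 with DNMT3b siRNA (80.8%), and 0 passed the edgeR test, with smallest adjusted p of 0.093 and 0.315.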

How the data were processed

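Methylation was measured by sequencing bisulfite-converted amplicons in 9 libraries, 3 per siRNA group. The authors deposited, per cytosine and library, a count of covering reads and the percent read as C and as T. Per the submitters' processing notes, the tools were FastQC, Bismark and Bowtie2 and the genome was mm10; versions and settings are not given in the sources used here. Methylated reads were recovered as coverage times percent C: 23884 of 23884 values were whole within 0.01 reads. CpGs with 30 reads in all 9 libraries were kept (310 of 355 listed, in 26 of 30 regions). Methylated and unmethylated counts were fitted with edgeR 4.0.16 in R 4.3.3 (quasi-likelihood test, library coefficients, all 3 groups sharing one spread), per site and per region, with two-sided p-values adjusted by Benjamini-Hochberg over all sites or all regions and a threshold of 0.05. Region levels are means over CpGs, while the region fits used counts summed over a region's CpGs, which gives deeply covered sites more weight. Pooling reads over sites was an alternative only for the gap between the 2 Tnni3 regions. Exact sign-flip tests compared values within libraries, and exact permutation tests compared groups. Every Tnni3 site and region is named; other regions are named only as the 3 nearest in level or as troponin genes. Alternatives were DESeq2 1.42.0, a quasi-binomial model, limma 3.58.1 (prior count 2), a replicate block, a fit to only the 6 libraries compared, only sites between 2% and 98%, reads pooled over sites, other coverage minimums and leaving out each library. Deviations from the group means over all tested CpGs were correlated to see whether replicate numbers pair libraries. Same-number correlations were 0.12 to 0.40 for DNMT3b siRNA with negative siRNA and 0.17 to 0.33 for DNMT3b siRNA with DNMT3a siRNA. They were -0.23 to 0.46 for DNMT3a siRNA with negative siRNA. Different-number correlations ran from -0.53 to 0.79 over the 3 comparisons. The labels do not say what a number shares. Members, lists and tests were chosen with earlier results of these data known.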

Additional observations from a re-analysis of the deposited data

How the results depend on the processing

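Under the alternatives other than leaving out a library, both Tnni3 regions kept their direction in each comparison, with log2 odds ratios of -0.22 to -0.18 (Tnni3_1) and -0.13 to -0.10 (Tnni3_2) for DNMT3a siRNA against negative siRNA and -0.29 to -0.27 and -0.16 to -0.14 for DNMT3b siRNA, and none passed the threshold. No single Tnni3 site passed it under any alternative run. In the comparisons with negative siRNA the smallest adjusted p was 0.272 by the edgeR test. It was at offset 66 of Tnni3_1 for DNMT3b siRNA, with only sites between 2% and 98%. Leaving out one library at a time, DNMT3a siRNA against negative siRNA ranged from -0.42 to -0.028 in Tnni3_1 and from -0.26 to -0.020 in Tnni3_2, and DNMT3b siRNA against negative siRNA from -0.37 to -0.17 and from -0.19 to -0.11. In the same way, DNMT3a siRNA against DNMT3b siRNA ranged from -0.16 to 0.24 in Tnni3_1 and from -0.10 to 0.14 in Tnni3_2, and the difference in their region gap from -1.54 to 0.85 points. For DNMT3a siRNA against negative siRNA, sites that changed sign ranged from -0.29 to 0.02 (offset 103; 0.025 and 0.022 without DNMT3a siRNA replicates 1 and 3), -0.49 to 0.10 (171), -0.37 to 0.45 (49), -0.28 to 0.00020 (354) and -0.35 to 0.22 (398, and 0.062 in a quasi-binomial model). For DNMT3b siRNA they ranged from -0.40 to 0.054 (409), -0.61 to 0.67 (49) and -0.34 to 0.017 (398). With a coverage minimum of 1000, added after seeing the data, 7 neighbouring pairs passed, since fewer sites were left. By the correlation of deviations, replicate numbers did not clearly pair the libraries, and 5 of 9 libraries were closest to one of their own number. Only between the DNMT siRNAs did every same-number correlation (0.17 or more) exceed every different-number one (at most 0.085). Against DNMT3b siRNA, negative siRNA replicate 3 was closer to replicate 2 (0.17) than to replicate 3 (0.12). With the replicate block, adjusted p was 0.679 (Tnni3_1) and 0.687 (Tnni3_2) for DNMT3a siRNA and 0.564 for DNMT3b siRNA, each against negative siRNA, and no call changed. Depth limits offset 409 of Tnni3_1 and offsets 49, 62 and 120 of Tnni3_2, each with at most 225 reads per library.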

Other observations

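Among cytosines outside CpGs with 1000 reads in all libraries, a few in Tnni3_2 had a mean share of C above 0.5%. Offset 193, followed by AA, read 1.34% ± 0.32 C (SD, n = 9, range 1.04% to 1.89%) and offset 219, followed by CT, 1.18% ± 0.17 (0.843% to 1.44%). Of the non-CpG cytosines with 1000 reads in all libraries, 5 of 49 in Tnni3_2 and 0 of 94 in Tnni3_1 exceeded 0.5%, against medians of 0.201% and 0.148%. These positions were singled out after their values were seen, and whether they are methylated or incompletely converted was not tested.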
